A study of Mus musculus with 12 samples.

Results

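The circadian clock repressors and Rev-erb genes are 10 genes of the clock's feedback loops: Per1, Per2, Per3, Cry1, Cry2, Clock, Nr1d1, Nr1d2, Bhlhe40 and Bhlhe41. They were chosen by symbol, as transcript clusters annotated to exactly 1 gene, taking the brightest where a gene has several. Each of the 10 had 1 such cluster, out of 19937 genes with a cluster of their own on the array. A transcript cluster is the array's set of probes for a gene, and its value is a log2 level. RNA came from lineage-depleted bone marrow, the progenitor-rich fraction that remains after magnetic removal of mature blood cells. It was taken from 6 E4bp4-/- mice, whose E4bp4 gene is disrupted, and 6 E4bp4+/+ mice, the wild type, with 1 GeneChip Mouse Gene 1.0 ST array per mouse. Age, strain, the deleted part of the gene and the hour of sampling are not given in the sources used here.

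In the mammalian clock, CLOCK pairs with BMAL1 (gene Arntl) and switches on genes that carry E-boxes, among them the Per, Cry, Rev-erb and Bhlhe40 genes. PER and CRY proteins then shut off CLOCK and BMAL1. REV-ERB alpha and beta (Nr1d1 and Nr1d2) are haem-binding nuclear receptors that repress Arntl and other genes through ROR elements, and BHLHE40 and BHLHE41 (DEC1 and DEC2) compete for E-boxes. E4BP4, also called NFIL3, binds D-boxes, where it represses and opposes the PAR bZIP activators DBP, TEF and HLF. REV-ERB alpha represses Nfil3 in turn.

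Promoter windows are shown for members whose motif content or values the results below return to, since E4BP4 and the clock proteins act through short DNA elements. RefSeq windows of 300 bases (250 before to 50 after a start, build GRCm38.p6) matched 8 of the 10 members, with 11 windows in all. They were searched on both strands for the D-box TTANGTAA, the E-box CACGTG, its variant CACGTT and the core AGGTCA shared by REV-ERB and ROR sites. The matches did not overlap each other in any member window. Capitals mark the matches in each window, printed 5′ to 3′ on the gene's strand. The windows are chr4:151044616-151044915 (minus strand) for Per3, chr11:69098699-69098998 (plus strand) for the first of the Per1 starts, chr10:85185005-85185304 (minus strand) for Cry1, chr11:98775328-98775627 (minus strand) for Nr1d1 and chr14:18239057-18239356 (minus strand) for Nr1d2.
Per3: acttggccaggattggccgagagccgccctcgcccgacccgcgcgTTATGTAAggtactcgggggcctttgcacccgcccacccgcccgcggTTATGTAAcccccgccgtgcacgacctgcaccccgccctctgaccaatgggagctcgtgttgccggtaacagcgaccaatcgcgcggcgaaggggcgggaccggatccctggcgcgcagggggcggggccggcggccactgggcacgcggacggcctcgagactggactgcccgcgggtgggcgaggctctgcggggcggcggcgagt
Per1: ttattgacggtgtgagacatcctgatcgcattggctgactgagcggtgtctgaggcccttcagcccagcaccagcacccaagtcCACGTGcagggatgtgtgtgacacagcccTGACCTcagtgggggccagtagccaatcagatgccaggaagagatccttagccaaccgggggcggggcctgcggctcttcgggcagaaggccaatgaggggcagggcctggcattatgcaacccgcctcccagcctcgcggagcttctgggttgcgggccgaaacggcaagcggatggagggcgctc
Cry1: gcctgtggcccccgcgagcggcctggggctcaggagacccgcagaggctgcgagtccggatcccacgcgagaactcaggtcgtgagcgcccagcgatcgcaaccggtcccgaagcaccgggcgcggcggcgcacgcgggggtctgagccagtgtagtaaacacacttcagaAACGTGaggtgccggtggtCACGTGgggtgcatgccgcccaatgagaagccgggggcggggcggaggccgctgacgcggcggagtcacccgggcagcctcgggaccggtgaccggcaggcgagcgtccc
Nr1d1: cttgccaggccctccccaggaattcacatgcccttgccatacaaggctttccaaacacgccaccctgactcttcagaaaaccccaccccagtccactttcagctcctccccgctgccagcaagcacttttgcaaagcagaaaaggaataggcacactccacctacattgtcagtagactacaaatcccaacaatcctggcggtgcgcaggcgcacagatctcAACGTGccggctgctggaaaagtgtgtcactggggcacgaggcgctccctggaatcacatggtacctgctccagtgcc
Nr1d2: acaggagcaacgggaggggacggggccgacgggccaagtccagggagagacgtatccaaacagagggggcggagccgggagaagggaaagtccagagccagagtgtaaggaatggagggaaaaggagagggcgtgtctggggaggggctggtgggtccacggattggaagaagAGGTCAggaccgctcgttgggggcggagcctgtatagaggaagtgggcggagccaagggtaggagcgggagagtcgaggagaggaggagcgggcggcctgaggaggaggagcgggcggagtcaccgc

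Per3 held 2 copies of the D-box, at bases 46 to 53 and 93 to 100 of its window, both spelled TTATGTAA. Of 32544 distinct promoter windows, 2.29% held at least 1 D-box and 0.083%, or 27 windows, held 2 or more. No other member window held a D-box by these letters, and Per2 and Bhlhe40 had no window and were not searched. An E-box stood in the windows of Per1 (bases 85 to 90), Cry1 (191 to 196) and Bhlhe41, against 7.17% of all windows. The variant CACGTT stood, on the opposite strand as AACGTG, in the windows of Cry1, Cry2 and Nr1d1, against 4.71%, and the core AGGTCA in those of Per1, Clock and Nr1d2, against 16.2%. The percentages count windows, while the members are named as genes, and the other Per1 and Clock windows held none of these motifs. Several starts of 1 gene share the gene, so windows are not independent.

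The genotypes were first checked at the targeted gene. Nfil3, which encodes E4BP4, was at 6.38, 6.92, 6.34, 6.37, 6.57 and 6.37 in E4bp4-/- arrays 1 to 6, against 7.66, 7.18, 7.10, 7.11, 6.94 and 7.05 in E4bp4+/+ arrays 1 to 6. The genotypes did not overlap, although the E4bp4-/- array 2 lay only just below the E4bp4+/+ array 5. The difference was -0.68 ± 0.13 (SE), with an exact permutation p of 0.00216 and a limma adjusted p of 0.140, and whether the probes lie in the deleted part is not known here. Across the series, array medians were between 6.50 and 6.62, and 29541 transcript clusters passed the filter on low values. The E4bp4-/- array 1 stood apart: its Xist level was 6.08, against at least 12.10 on the other arrays. Y-linked genes ran the opposite way. Kdm5d read 6.98 on this array, while no other array exceeded 4.8. For Uty the reading was 7.70 with the next highest 4.66, and for Eif2s3y it was 7.37 with the next highest 4.13. By these sex-linked genes the E4bp4-/- array 1 looked male and the other arrays female. The same array's list mean of monocyte and macrophage genes was 8.86, against at most 7.72. Some counts of list genes and list ranges are also given without the E4bp4-/- array 1. The others come from all 12 arrays and can change without it too. Without the E4bp4-/- array 1, 56.7% of all clusters had a positive difference. At an unadjusted limma p under 0.05, 8.42% were then called higher and 5.13% lower. No batch is labelled, and precision is limited by having 6 mice of each genotype.

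No member passed the threshold between the genotypes. Of the 9 members that passed the filter, 0 reached an adjusted p of 0.05 in limma, where 0% of all 29541 transcript clusters did (smallest adjusted p 0.109). At an unadjusted p under 0.05 there was 1 of 9, Nr1d1, where 14.9% of all transcript clusters were called (4391). In direction, 8.47% of all were called higher and 6.39% lower in E4bp4-/-; the split between directions depends on scaling. It was 2502 higher and 1889 lower with the deposited values, 1714 higher and 1937 lower when arrays were quantile normalised, and 1044 higher and 3711 lower when each array's median was set to a common value, which moved the median difference of all clusters by -0.04. Of the 9 members 5 had positive and 4 negative differences, with a median of 0.01 log2, against a median of 0.02 over all clusters tested. The genotypes overlapped for every member, whereas 1.27% of all clusters did not overlap. In the sentences that follow, differences are E4bp4-/- minus E4bp4+/+ on the log2 scale, given with SE, 95% intervals come from limma, and the exact permutation tests are two-sided over all splits of the 12 arrays into groups of 6.

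**Figure D1:**
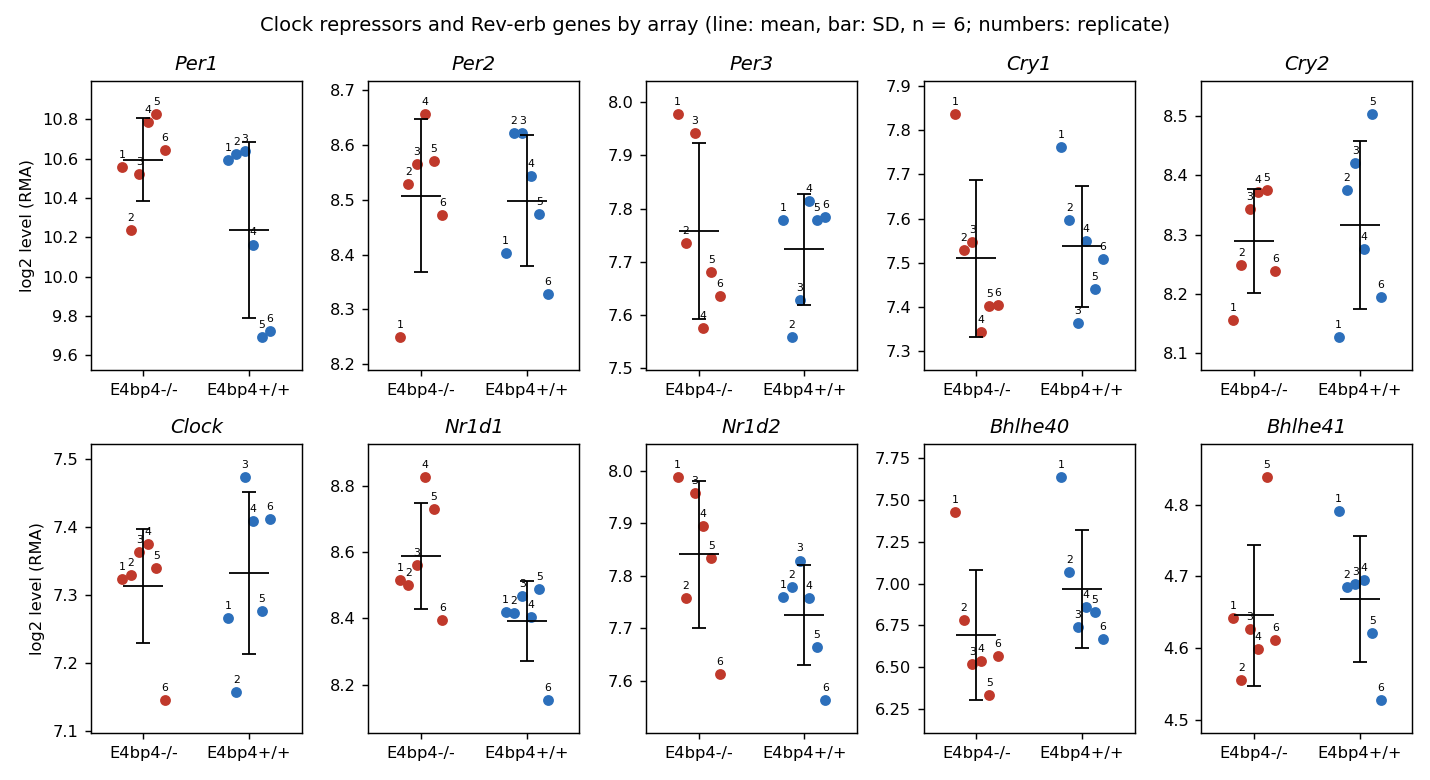
Log2 level (vertical axis, RMA values, a scale of its own for each gene) of the 10 genes on each array, with E4bp4-/- mice in red on the left and E4bp4+/+ mice in blue on the right. Each point is 1 mouse with its replicate number, horizontal lines are means and bars are SD (n = 6). The genotypes overlap in every panel; Per1 is lowest in E4bp4+/+ arrays 5 and 6, and Bhlhe40 is highest in array 1 of each genotype.

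Among the Period genes, Per1 had the largest difference in size of the 9 members tested over all arrays; without the E4bp4-/- array 1 that of Bhlhe40 was larger (-0.42, against 0.36 for Per1). PER1 is a core repressor whose gene also responds quickly to glucocorticoids and other signals. It was at 10.56, 10.24, 10.52, 10.79, 10.82 and 10.64 in E4bp4-/- arrays 1 to 6, against 10.59, 10.62, 10.64, 10.16, 9.69 and 9.72 in E4bp4+/+ arrays 1 to 6. The first 3 E4bp4+/+ arrays thus lay within the E4bp4-/- range, and the other 3 lay below all E4bp4-/- arrays. Means were 10.60 ± 0.21 in E4bp4-/- and 10.24 ± 0.45 in E4bp4+/+ (SD, n = 6 each), a difference of 0.36 ± 0.18, or 1.28-fold. The 95% interval was -0.04 to 0.75, the limma adjusted p 0.384 and the exact permutation p 0.115. With single arrays left out it was lowest without the E4bp4+/+ array 5, at 0.25, and highest without the E4bp4+/+ array 3, at 0.44.

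Per2, the other main PER repressor, showed no detectable difference. Its values were 8.25, 8.53, 8.56, 8.66, 8.57 and 8.47 in E4bp4-/- arrays 1 to 6, against 8.40, 8.62, 8.62, 8.54, 8.47 and 8.33 in E4bp4+/+ arrays 1 to 6. The ranges nearly coincide, with the E4bp4-/- array 1 the lowest of all 12. The difference was 0.01 ± 0.07, with a 95% interval of -0.15 to 0.17 and a limma adjusted p of 0.968. Per3, a PER protein with a lesser part in rhythm generation in mice, is the member whose promoter window holds the paired D-boxes printed above. It was at 7.98, 7.74, 7.94, 7.58, 7.68 and 7.63 in E4bp4-/- arrays 1 to 6, against 7.78, 7.56, 7.63, 7.81, 7.78 and 7.78 in E4bp4+/+ arrays 1 to 6. The E4bp4-/- arrays were the more scattered and included the highest values, in arrays 1 and 3. The difference was 0.03 ± 0.08 (95% interval -0.13 to 0.20, limma adjusted p 0.863), so a difference above 0.20 log2 in size lies outside the interval. Its sign, like that of Per2, turned with median centring (-0.01 for Per3 and -0.03 for Per2).

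The cryptochromes, the most potent repressors of CLOCK and BMAL1, did not differ detectably either. Cry1 was at 7.84, 7.53, 7.55, 7.34, 7.40 and 7.41 in E4bp4-/- arrays 1 to 6, against 7.76, 7.60, 7.36, 7.55, 7.44 and 7.51 in E4bp4+/+ arrays 1 to 6. In both genotypes array 1 was the highest. The difference was -0.03 ± 0.09 (95% interval -0.21 to 0.16, limma adjusted p 0.909). Cry2 was at 8.16, 8.25, 8.34, 8.37, 8.38 and 8.24 in E4bp4-/- arrays 1 to 6, against 8.13, 8.38, 8.42, 8.28, 8.50 and 8.19 in E4bp4+/+ arrays 1 to 6. Here array 1 was the lowest in both genotypes. The difference was -0.03 ± 0.07 (95% interval -0.17 to 0.12, limma adjusted p 0.879). Clock, the activator among the members, ranged from 7.15 to 7.37 (median 7.34) in E4bp4-/- and from 7.16 to 7.47 (median 7.34) in E4bp4+/+. Its difference was -0.02 ± 0.06 (95% interval -0.15 to 0.11, limma adjusted p 0.905).

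Both Rev-erb genes had positive differences, and Nr1d1 had the lowest p-value of the members. Nr1d1 was at 8.52, 8.50, 8.56, 8.83, 8.73 and 8.39 in E4bp4-/- arrays 1 to 6, against 8.42, 8.42, 8.47, 8.40, 8.49 and 8.15 in E4bp4+/+ arrays 1 to 6. All E4bp4-/- arrays other than 6 lay above all E4bp4+/+ arrays. Means were 8.59 ± 0.16 in E4bp4-/- and 8.39 ± 0.12 in E4bp4+/+ (SD, n = 6 each), a difference of 0.20 ± 0.08, or 1.15-fold. Its 95% interval was 0.03 to 0.37, the exact permutation p 0.0238 and the limma adjusted p 0.284, which did not pass. Nr1d2 was at 7.99, 7.76, 7.96, 7.89, 7.83 and 7.61 in E4bp4-/- arrays 1 to 6, against 7.76, 7.78, 7.83, 7.76, 7.66 and 7.56 in E4bp4+/+ arrays 1 to 6. Its 4 highest arrays were all E4bp4-/-, and array 6 was the lowest in each genotype. The difference was 0.12 ± 0.07 (95% interval -0.03 to 0.26, limma adjusted p 0.441, exact permutation p 0.128). Markers of other cell types are given beside these differences. Over all clusters 55.9% had a positive difference and 8.47% were called higher at an unadjusted p under 0.05. Without the E4bp4-/- array 1 these shares were 56.7% and 8.42%. At the adjusted threshold 0 marker genes passed. All 6 progenitor markers had positive differences (5 called at the unadjusted p, and 3 without the E4bp4-/- array 1). So had 5 of 5 megakaryocyte markers (2 called, and 5 without that array) and 4 of 4 plasma cell markers (2 called; without that array 3 of 4 were positive and 1 called). Of 5 stromal and bone markers 1 was positive and 4 negative, with 0 called, and without that array all 5 were negative. List means were 10.39 to 10.70 in E4bp4-/- and 10.19 to 10.46 in E4bp4+/+ for progenitor markers, and 10.23 to 11.12 in E4bp4-/- and 10.06 to 10.68 in E4bp4+/+ for megakaryocyte markers. Without the E4bp4-/- array 1 the megakaryocyte range in E4bp4-/- was 10.84 to 11.12, above every E4bp4+/+ array. With genotype means removed, Pearson's r with the progenitor, megakaryocyte, plasma cell and stromal lists was -0.003, 0.30, -0.02 and 0.52 for Nr1d1. For Nr1d2 it was 0.48, -0.25, 0.59 and 0.01, and none of these relations passed the adjusted threshold. The part of these lists in the Rev-erb differences, and that of the erythroid list described further on, was not tested.

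Of the basic helix-loop-helix repressors, Bhlhe40 was measured above the low end of the array and Bhlhe41 was not. Bhlhe40, a repressor that many stimuli induce in blood cells, was at 7.43, 6.78, 6.52, 6.54, 6.33 and 6.57 in E4bp4-/- arrays 1 to 6, against 7.64, 7.07, 6.74, 6.86, 6.83 and 6.67 in E4bp4+/+ arrays 1 to 6. Array 1 stood well above the others in both genotypes, and 4 of the E4bp4-/- arrays lay below the lowest E4bp4+/+ array. The difference was -0.27 ± 0.19 (95% interval -0.70 to 0.15, limma adjusted p 0.523, exact permutation p 0.245). Without the E4bp4-/- array 1 it was -0.42, and without the E4bp4+/+ array 1 it was -0.14. The unadjusted limma p of Bhlhe40 was 0.182 over all arrays. It was 0.0195 without the E4bp4-/- array 1 and 0.417 without the E4bp4+/+ array 1. Of the 21 alternatives described at the end, 4 brought it under 0.05. Bhlhe41 reached its array's 20th percentile on 0 of 12 arrays, ranging from 4.56 to 4.84 (median 4.62) in E4bp4-/- and from 4.53 to 4.79 (median 4.69) in E4bp4+/+, while those percentiles were 4.93 to 4.99. It was therefore left out of the main fit, which kept the filter. In a limma fit without the filter its difference was -0.02 (95% interval -0.14 to 0.10, limma adjusted p 0.882). It stayed in the member pairs and list relations below, where its values are those of a probe set at the low end of the array.

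**Figure D2:**
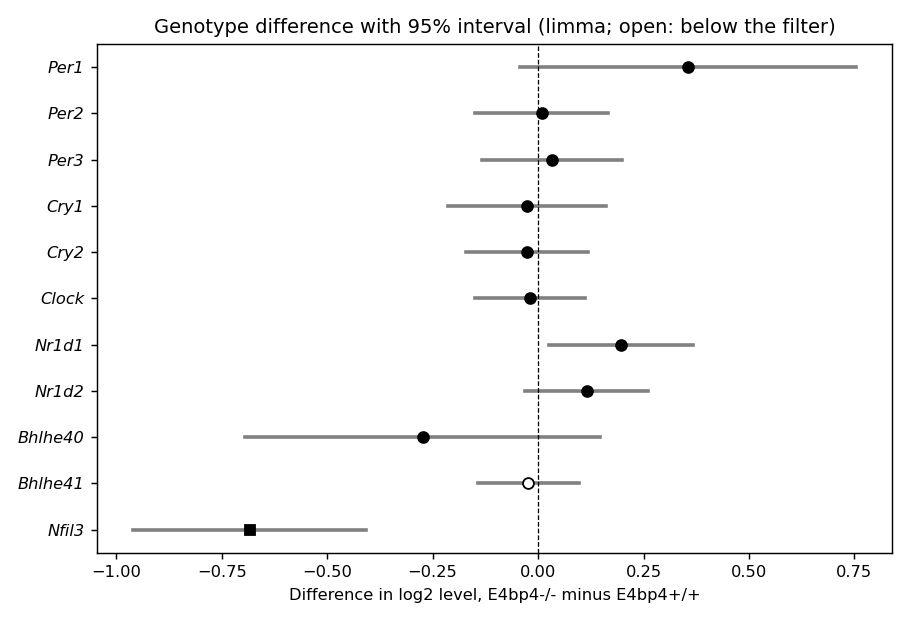
Difference in log2 level, E4bp4-/- minus E4bp4+/+ (horizontal axis), with its 95% interval from limma for the 10 genes and for Nfil3 (square). The interval of Nr1d1 (0.03 to 0.37) lies above 0 and that of Nfil3 lies below it; the other 9 intervals include 0, and the open point, Bhlhe41, comes from a fit without the filter on low values.

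The rest of the clock machinery was set beside these genes through lists chosen with earlier results of these data known. Of the activators and ROR receptors, 4 of 6 were tested, 1 higher and 3 lower, with Arntl at 6.95 in E4bp4-/- and 6.95 in E4bp4+/+ and 0 called at an unadjusted p under 0.05. The PAR bZIP genes Dbp, Tef and Hlf, the activators that E4BP4 opposes, had differences of 0.10 ± 0.05, 0.04 ± 0.05 and 0.05 ± 0.08, and 0 of 3 were called. Of 18 tested kinases, ubiquitin ligases and other modifiers of PER and CRY, 6 were higher and 12 lower. Of these 1 was called, Csnk1a1, a casein kinase that phosphorylates PER, at 10.71 in E4bp4-/- and 10.85 in E4bp4+/+, a difference of -0.14 ± 0.04 (limma adjusted p 0.209). Of 4 tested Rev-erb cofactors 1 was called, Tbl1xr1, a subunit of the NCoR corepressor complex, with 0.14 ± 0.06 (limma adjusted p 0.296), a call that was lost without the E4bp4-/- array 1. At the adjusted threshold 0 genes of any of these lists passed, and the background for a call at the unadjusted p is the 8.47% higher and 6.39% lower given above.

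Output genes of the clock and genes that respond to stimuli were read against the 8.47% of all clusters called higher and 6.39% called lower. Of 10 clock output genes tested, 7 were higher and 3 lower, and 2 were called at an unadjusted p under 0.05, both higher: Cys1 by 0.20 ± 0.06 (limma adjusted p 0.214) and Tspan4 by 0.11 ± 0.05 (0.325). Of 11 glucocorticoid response genes 6 were higher and 5 lower, with 2 called higher. These were Fkbp5, a chaperone of the glucocorticoid receptor, at 8.57 in E4bp4-/- and 8.31 in E4bp4+/+, and Ddit4, an inhibitor of mTORC1 signalling, at 8.03 in E4bp4-/- and 7.82 in E4bp4+/+. Their limma adjusted p-values were 0.245 and 0.236. Of 16 immediate early genes 6 were higher and 10 lower, and 0 were called; without the E4bp4-/- array 1, 2 were higher and 14 lower, again with 0 called. List medians of the differences were -0.01 for activators and RORs, 0.05 for PAR bZIP genes, -0.03 for PER and CRY modifiers, -0.04 for Rev-erb cofactors, 0.03 for output genes, -0.05 for immediate early genes and 0.01 for glucocorticoid response genes, against 0.02 over all clusters tested.

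Among the members, the spread between mice of 1 genotype was largest for Per1 and Bhlhe40, and it was not even over the arrays. The SD within genotype was 0.350 log2 for Per1 and 0.371 for Bhlhe40, above 92.8% and 94% of the clusters tested, whose median SD was 0.113. Array 1 of each genotype stood apart in Bhlhe40, at 7.43 in E4bp4-/- and 7.64 in E4bp4+/+, with the other arrays at 6.33 to 7.07. For Per1 the SD was 0.21 in E4bp4-/- and 0.45 in E4bp4+/+, where arrays 4 to 6 lay below arrays 1 to 3. With single arrays left out the SD within genotype was 0.311 to 0.369 for Per1 and 0.285 to 0.390 for Bhlhe40. Over all arrays Cry1 followed with 0.159, Nr1d1 with 0.142, Per3 with 0.138 and Per2 with 0.130. The SD was 0.119 for Nr1d2, 0.118 for Cry2 and 0.103 for Clock, near the median of all clusters. These are differences between mice in 1 gene's log2 value, so they do not rank the genes by level.

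Co-variation was measured over the 12 arrays after the genotype mean of each gene was removed, for all 45 pairs of members. By Pearson's r, 10 of 45 pairs had an unadjusted permutation p under 0.05 and 0 passed after Benjamini-Hochberg adjustment (smallest adjusted p 0.0792); by Spearman's rho 9 did, and 0 passed. The strongest pair was Cry1 with Bhlhe40, at r = 0.90 (permutation p 0.00176, adjusted 0.0792) and rho = 0.76 (permutation p 0.00931, adjusted 0.217). It was 0.91 within E4bp4-/- and 0.89 within E4bp4+/+. Without the arrays farthest from the median of Cry1, which are array 1 of each genotype, r was 0.54, so the relation rests largely on those arrays.

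The cryptochromes ran opposite to each other. Cry1 with Cry2 had r = -0.70 (permutation p 0.00838, adjusted 0.149) and rho = -0.65 (permutation p 0.0299, adjusted 0.218), and -0.41 without array 1 of each genotype. Per2 went with Cry2 at r = 0.71 (permutation p 0.0118, adjusted 0.149) and rho = 0.74 (permutation p 0.0114, adjusted 0.217), and at 0.58 without the arrays farthest from the median of Per2. Leaving out the E4bp4+/+ array 5 alone brought that pair to r = 0.89 and an adjusted permutation p of 0.0292. Per2 with Cry1 was at r = -0.67 (permutation p 0.0382, adjusted 0.191) and rho = -0.55 (permutation p 0.0871, adjusted 0.349), and at -0.52 without the farthest arrays. Without the E4bp4-/- array 1 it was -0.35. Array 1 of both genotypes was thus the highest in Cry1 and Bhlhe40 and the lowest in Cry2, while for Per2 it was the lowest in E4bp4-/- and second to array 6 in E4bp4+/+.

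Among the other pairs, Per2 with Per3 was at r = -0.66 (permutation p 0.0242, adjusted 0.170) and rho = -0.62 (permutation p 0.0457, adjusted 0.229), and -0.46 without the farthest arrays. Nr1d1 rose and fell with Cry2 (r = 0.62, permutation p 0.0247, adjusted 0.170; rho = 0.67, permutation p 0.0145, adjusted 0.217) and with Per2 (r = 0.62, permutation p 0.0441, adjusted 0.198; rho = 0.65, permutation p 0.034, adjusted 0.218). Without the farthest arrays these were 0.80 and 0.53. Cry2 with Bhlhe40 was at r = -0.63 (permutation p 0.0264, adjusted 0.170) and Per3 with Cry1 at 0.65 (permutation p 0.0330, adjusted 0.185). Their values without the farthest arrays were -0.52 and 0.62. Per1 with Bhlhe41, which lay below the filter on low values, was at r = 0.68 (permutation p 0.0132, adjusted 0.149), and at 0.50 without the farthest arrays. The Rev-erb genes went together at r = 0.55 (permutation p 0.103, adjusted 0.331) and rho = 0.35 (permutation p 0.318, adjusted 0.623), and at 0.37 without the farthest arrays. Per1 with Nr1d2 was at r = 0.48 (permutation p 0.0774, adjusted 0.290) and rho = 0.44 (permutation p 0.102, adjusted 0.354). It was 0.09 within E4bp4-/- and 0.88 within E4bp4+/+; the difference between these was not tested, and without the E4bp4+/+ arrays 5 and 6 r was 0.14.

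**Figure D3:**
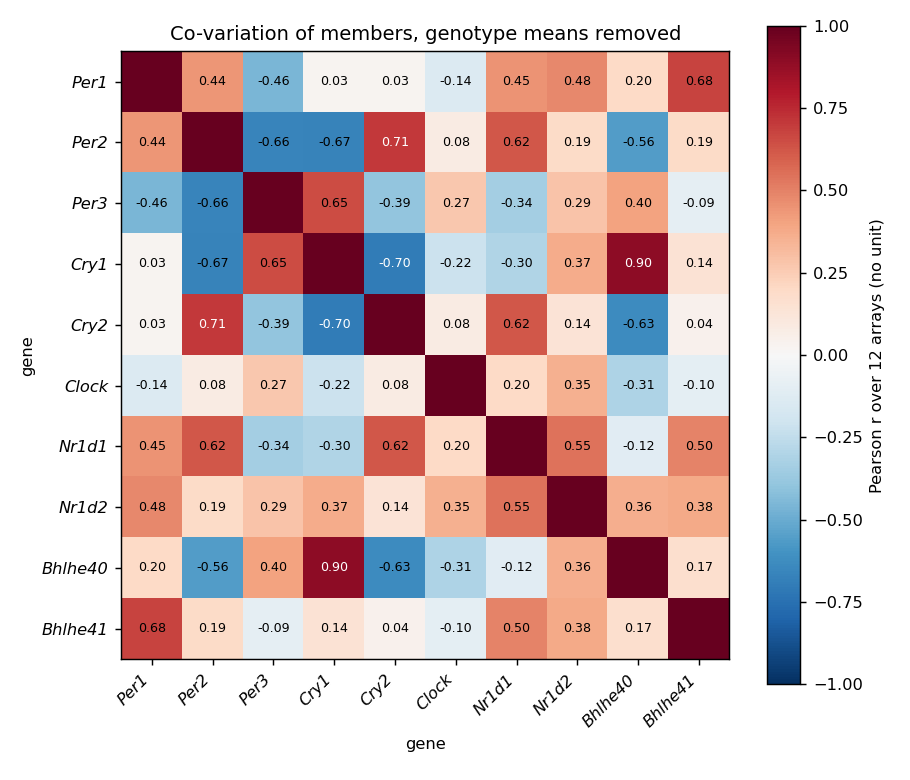
Pearson's r over the 12 arrays, genotype means removed, for each pair of the 10 genes (both axes list genes; colour from -1 in blue to 1 in red, diagonal 1). Cry1 with Bhlhe40 reaches 0.90 and Cry1 with Cry2 -0.70; 0 of the 45 pairs passed the adjusted threshold.

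Because marrow is a mixture, the members were also set against the mean log2 level of 17 gene lists per array, in 170 relations with genotype means removed. In bulk RNA, fewer cells of a type and less RNA per cell cannot be told apart. By Pearson's r 8 relations passed a permutation p adjusted over the 170, and by Spearman's rho 0 did (smallest adjusted p 0.110, 36 at an unadjusted p under 0.05). Leaving out single arrays gave 0 to 12 such relations: 0 without E4bp4-/- arrays 2 or 4 or E4bp4+/+ arrays 1, 3, 4 or 5, 1 without the E4bp4-/- array 1, and 12 without the E4bp4-/- array 5. The relation that passed without the E4bp4-/- array 1 was none of the 8. The r values themselves moved less: over the left-out arrays that of Bhlhe40 with the immediate early list was 0.84 to 0.94 and that of Cry1 with the neutrophil list 0.76 to 0.93, and the signs of the 8 were kept in every case. The calls are therefore given as values with that limit.

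Cry1 was higher on arrays with more myeloid signal, but it did not go with that signal alone. Its r was also -0.83 with the megakaryocyte list, -0.76 with Rev-erb cofactors, 0.79 with basophil and mast cell genes and 0.76 with progenitor markers. For immediate early genes it was 0.75, and for plasma cells and B cell precursors 0.73 each. None of these passed the adjusted threshold. With PAR bZIP genes and the erythroid list r was 0.06 and -0.12. Its r was 0.89 with the neutrophil granule list (rho 0.83, adjusted permutation p 0.0287 for r and 0.110 for rho) and 0.86 with the monocyte and macrophage list (rho 0.78, adjusted permutation p 0.0287 and 0.110). Without the arrays farthest from the list medians they were 0.74 and 0.65. Cry1 also went with the T and NK cell list at 0.92 (rho 0.83, adjusted permutation p 0.0287 and 0.110), and at 0.76 without the farthest arrays. That list mean is carried by Nkg7, a cytotoxic granule gene whose SD within genotype was 0.48, against 0.10 to 0.13 for the list's other 4 genes. Cry1 had r = 0.92 with Nkg7 alone, -0.36 with the T cell receptor gene Cd3e and -0.38 with the list mean without Nkg7, so the relation does not stand for T and NK cell markers as a group. The neutrophil list, all 12 genes tested, had means of 8.36 to 10.76 in E4bp4-/- and 8.35 to 9.45 in E4bp4+/+, with the E4bp4-/- array 1 at the top. By genotype 11 of those 12 genes were higher and 1 lower in E4bp4-/-, with 0 called at an unadjusted p under 0.05; without the E4bp4-/- array 1, 7 were higher and 5 lower, with 2 called higher, and the list mean in E4bp4-/- reached only 9.39. Over all clusters 55.9% were higher, with 8.47% called higher and 6.39% called lower. Without the E4bp4-/- array 1 these shares were 56.7%, 8.42% and 5.13%. When the neutrophil mean of each array was removed together with genotype, Cry1 with Bhlhe40 was at 0.66 and Cry1 with Cry2 at -0.33.

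Cry2 ran the other way. Its r was -0.65 with the monocyte and macrophage list (rho -0.71, adjusted permutation p 0.0287 for r and 0.110 for rho), within genotypes -0.79 in E4bp4-/- and -0.98 in E4bp4+/+. It was -0.81 with the basophil and mast cell list (rho -0.77, adjusted permutation p 0.0287 and 0.110) and -0.70 with the B cell precursor list (rho -0.76, adjusted permutation p 0.0325 and 0.110). Without the farthest arrays these were -0.72, -0.65 and -0.77. Beside the counts by genotype that follow, 55.9% of all clusters were higher, 8.47% called higher and 6.39% called lower. Without the E4bp4-/- array 1 these shares were 56.7%, 8.42% and 5.13%. The monocyte and macrophage list, all 6 genes tested, had means of 7.21 to 8.86 in E4bp4-/- and 7.25 to 7.72 in E4bp4+/+. All 6 were higher in E4bp4-/- and 0 were called; without the E4bp4-/- array 1, 2 were higher and 4 lower, with 0 called, and the E4bp4-/- means reached only 7.66. The basophil and mast cell list had means of 8.75 to 10.58 in E4bp4-/- and 8.53 to 10.33 in E4bp4+/+, with 5 of 5 higher and 0 called. The B cell precursor list, 6 of 7 tested, had means of 6.55 to 7.05 in E4bp4-/- and 6.48 to 6.73 in E4bp4+/+, with 6 higher and 3 called (5 higher and 3 called without the E4bp4-/- array 1). Per3 went with the T and NK cell list at 0.83 (rho 0.76, adjusted permutation p 0.0287 for r and 0.118 for rho), and at 0.80 without the farthest arrays. Here too Nkg7 carried it: Per3 had r = 0.73 with Nkg7 alone, -0.48 with Cd3e and -0.08 with the list mean without Nkg7. The list, 5 of 6 tested, had means of 7.12 to 7.38 in E4bp4-/- and 7.15 to 7.29 in E4bp4+/+, with 2 genes called higher and 2 lower (2 higher and 1 lower without the E4bp4-/- array 1).

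Bhlhe40 followed the immediate early genes, a list of rapidly induced factors such as Fos, Jun and Egr1. Its r was 0.91 (permutation p 0.00041, adjusted 0.0287) and rho 0.77 (permutation p 0.0081, adjusted 0.116), with 0.92 within E4bp4-/- and 0.90 within E4bp4+/+. Without array 1 of each genotype, the farthest, r was 0.67. The list mean ran from 9.19 to 10.23 in E4bp4-/- and from 9.04 to 10.14 in E4bp4+/+, and array 1 was the highest in both. Bhlhe40 also had r = 0.81 with the neutrophil granule list (permutation p 0.00424, adjusted 0.0655). Other lists came near that size: T and NK cells 0.80, monocytes and macrophages 0.78, megakaryocyte -0.77 and glucocorticoid response 0.75. For plasma cells r was 0.73, for clock output 0.72, and for progenitors and for basophil and mast cells 0.69 each. Rev-erb cofactors were at -0.68 and B cell precursors at 0.66. None of these passed the adjusted threshold. With PAR bZIP genes and the erythroid list r was -0.04 and -0.23.

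The Rev-erb genes were lower on arrays with more erythroid signal, without passing the adjusted threshold. For Nr1d1 r was -0.83 (permutation p 0.00276, adjusted 0.0521) and rho -0.77 (permutation p 0.00821, adjusted 0.116), with -0.73 within E4bp4-/-, -0.99 within E4bp4+/+ and -0.69 without the farthest arrays. For Nr1d2 r was -0.80 (permutation p 0.0073, adjusted 0.0717) and rho -0.62 (permutation p 0.0578, adjusted 0.252). Of all clusters 55.9% were higher by genotype, with 8.47% called higher and 6.39% called lower. Without the E4bp4-/- array 1 these shares were 56.7%, 8.42% and 5.13%. The erythroid list, 7 of 8 tested, had means of 11.15 to 11.51 in E4bp4-/- and 11.29 to 11.68 in E4bp4+/+. By genotype 1 of its genes was higher and 6 lower in E4bp4-/-, with 1 called lower, the haem synthesis enzyme Fech; without the E4bp4-/- array 1, 3 were higher and 4 lower, with 1 called lower. Per1 had r = 0.63 with the glucocorticoid response list (permutation p 0.0482, adjusted 0.178; rho 0.67, permutation p 0.0429, adjusted 0.216), at 0.03 within E4bp4-/- and 0.91 within E4bp4+/+, a difference that was not tested.

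**Figure D4:**
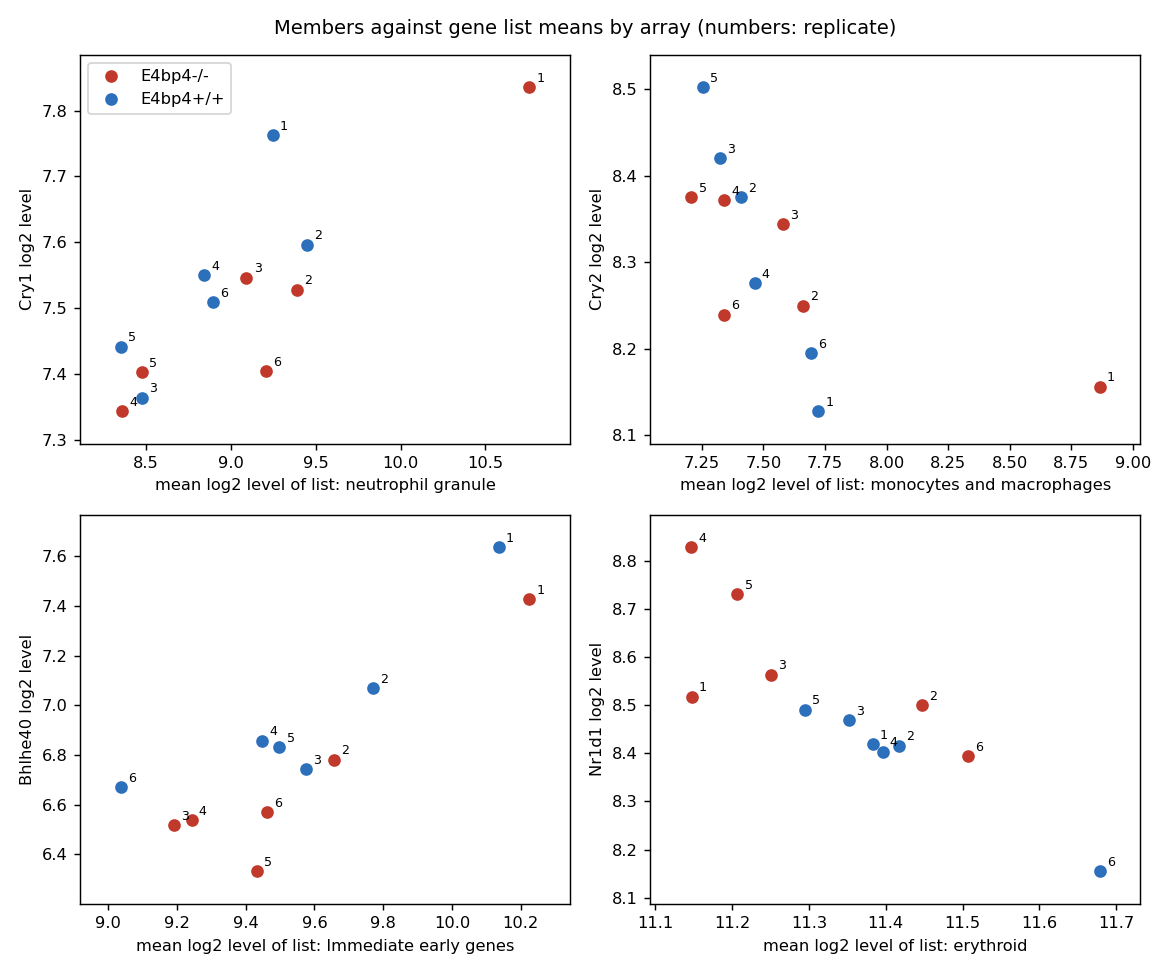
Log2 level of Cry1, Cry2, Bhlhe40 and Nr1d1 (vertical axes) against the mean log2 level of the neutrophil granule, monocyte and macrophage, immediate early and erythroid lists (horizontal axes), with E4bp4-/- arrays in red and E4bp4+/+ arrays in blue. Each point is 1 mouse with its replicate number. Cry1 and Bhlhe40 rise with their lists (r = 0.89 and 0.91 with genotype means removed), Cry2 and Nr1d1 fall with theirs (-0.65 and -0.83), and the E4bp4-/- array 1 lies at the far right of both upper panels.

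The genes most like each member were sought among 17806 others (17807 for Bhlhe41) by Pearson's r over the 12 arrays, genotype means removed. Being the highest of so many, these values are a description. Cry1 was closest to Rassf5, a Ras-association adaptor (0.99), Spi1, the myeloid and B cell factor PU.1 (0.99), and the kinase gene Map3k3 (0.99). Bhlhe40 was closest to Rara, the retinoic acid receptor alpha (0.99), Vasp, a regulator of actin (0.96), and Tmem159 (0.96). Spi1 ran from 9.83 to 11.26 in E4bp4-/- and from 9.76 to 10.75 in E4bp4+/+.

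For Per2 the closest were Xylb, a xylulokinase gene (0.96), Hspd1, a mitochondrial chaperonin (0.95), and Oat, ornithine aminotransferase (0.95). Per3 had Znrf1 (0.95), Ern1, the stress sensor IRE1 alpha (0.94), and Manba, a lysosomal mannosidase (0.92). Per1 had Tmem190 (0.92), Dync2li1 (0.91) and Eif3l, a translation initiation subunit (0.91). Nr1d2 had Ide, the insulin-degrading enzyme (0.94), Hook1 (0.93) and Myb, a progenitor transcription factor (0.93). Nr1d1 had Hgh1 (0.88), Fasn, fatty acid synthase (0.87), and Pex11a, a peroxisome factor (0.87). Cry2 had Nfrkb (0.94), Dlgap4 (0.93) and Gm10710 (0.92), and Clock had Senp6 (0.89), Casd1 (0.87) and Efr3a (0.87). Bhlhe41, at the low end of the array, had Hjv (0.95), Islr2 (0.92) and Wt1os (0.92). No member stood among the closest 3 of another member.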

How the data were processed

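Total RNA of lineage-depleted bone marrow was hybridised to arrays, per the labels' protocols. The authors normalised the arrays with RMA16 in GeneSpring GX version 11 and deposited log2 levels per transcript cluster, per the series design text; the log2 scale was read from their range, 3.18 to 14.33. That text also names a 20th percentile filter, a moderated test and Benjamini-Hochberg correction. Scanner files were not used here.

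Genes were named from platform annotation (21640 transcript clusters with 1 gene, 1321 with several, 11799 with none). Clusters below the 20th percentile on all 12 arrays were removed, leaving 29541. E4bp4-/- minus E4bp4+/+ was fitted with limma 3.58.1 in R 4.3.3 (lmFit, eBayes, no covariate), adjusted over all kept clusters at 0.05. Correlations used Python 3.11.15, with 100000 permutations within genotype, and fewer where arrays were left out. The limma fit was tested on simulated data.

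Members and lists were chosen with earlier results of these data known. Named genes were all members, Nfil3, up to 4 genes per clock, stimulus or output list with an unadjusted p under 0.05, and the 3 genes most like each member. Alternatives changed how low values were filtered and arrays scaled, weighted or left out, and added a variance trend, Xist or the replicate number to the fit.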

Additional observations from a re-analysis of the deposited data

Results flagged for a closer look

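Of 56 sets of 6 arrays, 8 held an outlying array by Dixon's 95% criterion, where chance gives about 2.8 (1 in 20). In these the gap to the nearest neighbour in the genotype was too large a share of the genotype's range. The sets come from the same arrays and are not independent, so setting 8 beside 2.8 is not a test. Of the 8, 3 fell in the E4bp4-/- array 1. Among the members, Clock was low in the E4bp4-/- array 6, at 7.15 with the next at 7.32, and Nr1d1 was low in the E4bp4+/+ array 6, at 8.15 with the next at 8.40. Bhlhe41 was high in the E4bp4-/- array 5, at 4.84 with the next at 4.64, below the 20th percentile all the same. Nfil3 was high in the E4bp4+/+ array 1, at 7.66. The erythroid list mean stood apart in the E4bp4+/+ array 6, at 11.68, the array in which Nr1d1 was lowest. In the E4bp4-/- array 1 the megakaryocyte list mean was low, at 10.23, and the plasma cell and the monocyte and macrophage list means were high, at 10.53 and 8.86.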

How the results depend on the processing

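Every member in the main fit stayed short of an adjusted p of 0.05 in limma under all 21 alternatives. Its adjusted p ranged from 0.198 to 0.412 for Nr1d1, 0.272 to 0.548 for Per1 and 0.173 to 0.719 for Bhlhe40. Per1, Nr1d1, Nr1d2 and Bhlhe40 kept their direction in all 21. Clusters past that threshold numbered 5 with array weights, 3 with Xist as a covariate and 0 to 4 with single arrays left out. Members past an unadjusted p of 0.05 were 0 with median centring, 2 with the Xist covariate, 2 without array 1 of both genotypes, and 0 to 2 with single arrays left out; Nr1d1 kept an unadjusted p under 0.05 in 17 of 21 alternatives, but not with median centring (0.0736) or without the E4bp4-/- arrays 4 (0.0612) or 5 (0.0611) or the E4bp4+/+ array 6 (0.0607). Positive member differences numbered 3 with median centring and 3 to 6 with single arrays left out. The signs that turned were those of differences near 0. Median centring gave -0.032 for Per2 and -0.006 for Per3, and Per3 was at -0.002 with array weights and -0.005 with the Xist covariate. With single arrays left out Per2 ran from -0.026 to 0.060, Per3 from -0.010 to 0.070, Cry1 from -0.092 to 0.018, Cry2 from -0.064 to 0.011 and Clock from -0.054 to 0.014. Without single arrays 0 to 1 member pairs passed (Per2 with Cry2), and without array 1 of both genotypes 2 did (Per2 with Nr1d2 and Cry2 with Nr1d1). Relations with list means numbered 0 by Spearman's rho, 1 without the 2 farthest arrays, 0 without array 1 of both genotypes, 0 to 12 with single arrays left out, 11 after quantile normalisation and 12 after median centring; these relations and all their alternatives, leaving out both arrays numbered 1, and the list counts without the E4bp4-/- array 1 were chosen after seeing the data. The causes were not tested.

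The labels do not say that a replicate number marks a shared litter or day, and the numbers were not taken as pairs, since not all 6 correlations exceeded 0.1. Same-numbered arrays correlated in their deviations from the genotype means from -0.033 (number 4) to 0.462 (number 1); numbers 1, 5 and 6 were above 0.1 and correlated best with their own number, a hint from the data and not the design. With the number as a block, 3 members had an unadjusted p under 0.05 in limma (Nr1d1 0.00766, Nr1d2 0.0305, Bhlhe40 0.00127) and 0 clusters passed the adjusted threshold; for Bhlhe40 the unadjusted p without the block was 0.182, and Cry1 with Bhlhe40 was at r = 0.16 with the block. No member has a second transcript cluster, so that alternative was not run.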
